A study of Mus musculus with 6 samples.

Results

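The 38 genes described here encode the machinery that folds, inspects and disposes of proteins in the endoplasmic reticulum (ER), and they were read in a mouse podocyte line, SVI, that was conditionally immortalized. They came from a list of 40 symbols. A gene was taken up when the platform's annotation gave its symbol alone to a probe set, the group of short probes that reads 1 transcript, and the probe set with the highest mean over all 6 arrays stood for the gene. The symbols Ero1l and Ero1lb were not in that annotation, so 38 of the 18193 genes tested were members. The oxidases behind those 2 names are listed as Ero1a and Ero1b and are described with the remaining oxidoreductases.

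Podocytes are the epithelial cells on the outside of the glomerular capillaries, and the series asks what mechanical load does to them in culture. Stretched cells had 3 d of cyclic biaxial stretch at 0.5 Hz and up to 5% linear strain, and unstretched cells had none. Both groups were of the same line, are titled differentiated podocytes, and were kept at 38 °C in medium with 10% serum. Each group had 3 arrays, and that number limits the precision of every value. The cells are a single line, and nothing in the labels ties an array to 1 of the 3 batches that the series mentions, so each p-value is set by the spread from array to array, part of which may be technical.

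Proteins enter the ER through the Sec61 translocon, where the Hsp70-type chaperone Hspa5 (BiP), the lectins calnexin and calreticulin and the disulfide isomerases fold them. Chains that fail to fold are trimmed, pulled back to the cytosol and degraded by the proteasome, a route called ER-associated degradation. When unfolded chains build up, the membrane sensors Ern1 (IRE1), Eif2ak3 (PERK) and Atf6 raise the output of many of these genes, in part through the transcription factor Xbp1. Podocytes make large amounts of membrane and basement membrane glycoproteins, all of which pass through this compartment.

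Promoters of chaperone genes of this family hold the ER stress response element (ERSE), a CCAAT box and a CCACG box spaced 9 bases apart that binds NF-Y together with Atf6 or Xbp1. The element was defined on such genes, so finding it among them is background and not a result. RefSeq promoter windows of GRCm38.p6, from 250 bases before to 50 bases after the start of the gene, were at hand for 31 of the 38 members, and Hspa13, Hyou1, Sil1, Manf, Atf6, Derl1 and Sec61a1 had no entry. The letters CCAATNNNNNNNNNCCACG, searched on both strands, were in the windows of 9 of the 31 members (29.0%). Among all genes with a window they were in those of 37 of 27025 (0.137%). The windows of 6 members are given 5′ to 3′ along the gene, with the fixed letters of the ERSE in capitals: those of both members that rose and held it, of 3 members that held it and did not pass the test, and of the member that fell.
Hspa5, chr2:34771840-34772139, + strand: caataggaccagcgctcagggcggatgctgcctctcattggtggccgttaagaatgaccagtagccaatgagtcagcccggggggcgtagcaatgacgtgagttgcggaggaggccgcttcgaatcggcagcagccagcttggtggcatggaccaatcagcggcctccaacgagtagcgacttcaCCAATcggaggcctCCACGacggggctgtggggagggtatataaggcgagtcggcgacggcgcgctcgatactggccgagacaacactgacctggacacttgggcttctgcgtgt
Syvn1, chr19:6046326-6046625, + strand: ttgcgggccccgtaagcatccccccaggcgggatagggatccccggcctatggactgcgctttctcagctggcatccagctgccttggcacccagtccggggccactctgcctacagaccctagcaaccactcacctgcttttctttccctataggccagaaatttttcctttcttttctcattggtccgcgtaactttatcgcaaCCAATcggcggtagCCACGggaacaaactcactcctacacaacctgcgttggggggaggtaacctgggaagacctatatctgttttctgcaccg
Hsp90b1, chr10:86705395-86705694, - strand: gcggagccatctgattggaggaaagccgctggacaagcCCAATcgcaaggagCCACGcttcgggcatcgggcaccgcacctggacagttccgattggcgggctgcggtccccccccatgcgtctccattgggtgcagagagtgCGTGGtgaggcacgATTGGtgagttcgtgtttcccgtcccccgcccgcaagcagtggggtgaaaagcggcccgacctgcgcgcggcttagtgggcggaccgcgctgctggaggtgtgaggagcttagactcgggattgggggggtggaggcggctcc
Canx, chr11:50325624-50325923, - strand: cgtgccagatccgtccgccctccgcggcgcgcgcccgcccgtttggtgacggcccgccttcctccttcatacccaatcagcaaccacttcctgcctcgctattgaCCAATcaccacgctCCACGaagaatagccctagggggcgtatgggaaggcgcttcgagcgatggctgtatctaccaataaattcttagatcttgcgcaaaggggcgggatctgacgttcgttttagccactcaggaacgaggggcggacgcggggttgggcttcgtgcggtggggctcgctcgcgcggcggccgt
Creld2, chr15:88819396-88819695, + strand: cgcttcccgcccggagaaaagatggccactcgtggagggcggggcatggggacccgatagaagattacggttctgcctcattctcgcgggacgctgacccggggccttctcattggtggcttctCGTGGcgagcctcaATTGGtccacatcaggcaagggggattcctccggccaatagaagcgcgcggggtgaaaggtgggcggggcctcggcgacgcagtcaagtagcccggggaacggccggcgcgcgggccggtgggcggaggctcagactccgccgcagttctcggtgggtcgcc
Edem2, chr2:155729426-155729725, - strand: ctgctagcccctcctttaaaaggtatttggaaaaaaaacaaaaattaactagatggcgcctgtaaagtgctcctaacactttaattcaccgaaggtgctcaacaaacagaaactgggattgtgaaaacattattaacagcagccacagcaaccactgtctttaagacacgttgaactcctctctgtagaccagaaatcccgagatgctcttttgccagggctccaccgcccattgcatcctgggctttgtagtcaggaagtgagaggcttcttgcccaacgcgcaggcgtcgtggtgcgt
Counted from the start of the gene, the match began at base -65 in Hspa5 and at base -44 in Syvn1. Hsp90b1 held 2 matches, the one nearer the start on the opposite strand, and the window of Edem2 held none. The remaining matches were in Calr, Derl3, Pdia6 and Dnajc3. A related element, ERSE-II (an ATTGG box and a CCACG box 1 base apart, on either strand), was found in Herpud1 and Dnajb11. It was in 0.0444% of all genes with a window, and no window of a member held both elements. The core of the unfolded protein response element (TGACGTG) was found in Hspa5 and Txndc5 and in 2.22% of all genes with a window. Of the 9 members with an ERSE match 2 rose and 0 fell in limma, with a median log2 change of 0.25; of the 22 with a window and no match 0 rose and 1 fell, with a median of 0.07. The 7 members without a window held 3 of the 5 genes that rose and 0 that fell in limma, with a median of 0.28. By the same rule 7.98% of all genes rose and 6.76% fell. Among genes with a mean above that of the median gene, 14.3% rose and 10.5% fell. The difference between these groups of members was not tested.

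**Figure D1:**
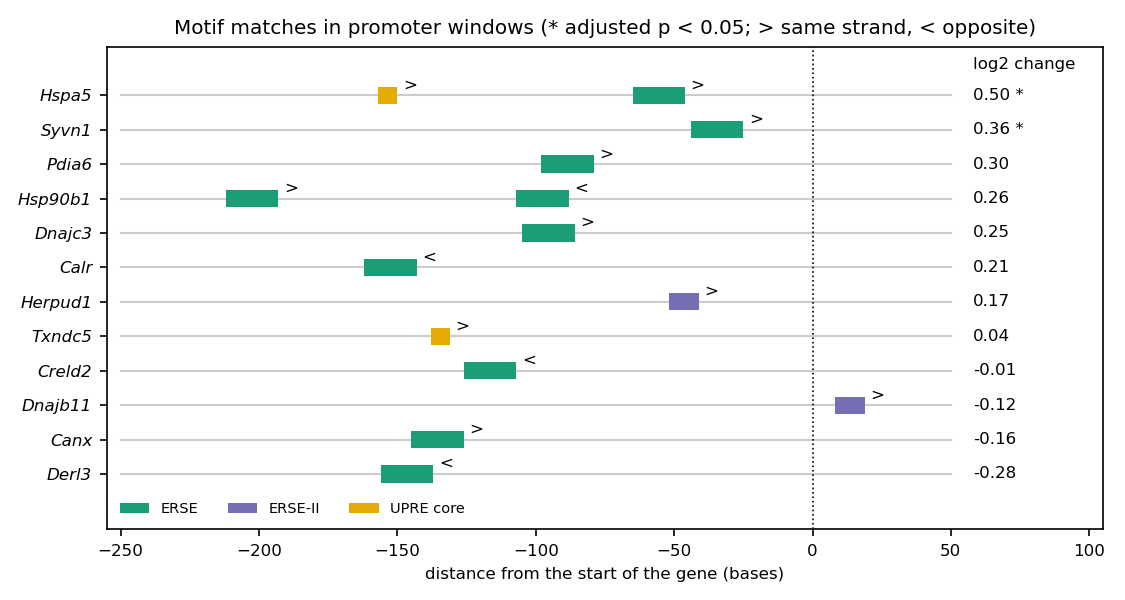
Matches to the ERSE, ERSE-II and the core of the unfolded protein response element in the promoter windows of the 12 members that held any, by distance from the start of the gene in bases; each gene's log2 change (stretched minus unstretched) stands at the right, with a star where it passed the test. The 2 starred genes, Hspa5 and Syvn1, are among 9 with an ERSE, whose changes run from -0.28 to 0.50.

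Few members passed the test, and those that did changed by small amounts. Of the 38, 5 rose and 1 fell in stretched cells, while 32 did not pass a Benjamini-Hochberg adjusted p of 0.05 in limma's fit over all 18193 genes. The genes that rose were the chaperones and cochaperones Hspa13, Manf, Hspa5 and Hyou1 and the ubiquitin ligase gene Syvn1, and the gene that fell was Edem2, a factor of glycan trimming. The largest change was 1.66-fold, and no member reached a log2 change of 1 in size. The median size of the log2 change was 0.22 over the members, against 0.13 over all genes, dim ones included. By this rule 14.7% of all genes were called, 7.98% as higher and 6.76% as lower, against 15.8% of the members, 13.2% as higher and 2.63% as lower. Most members are brightly read: 37 of 38 had a mean above that of the median gene. Among all 9097 genes above it, 24.8% were called, 14.3% as higher and 10.5% as lower. The share of members that rose was near that 14.3%. Many members lie well above the median gene, and no share of genes matched to their levels was computed.

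The members leaned slightly upward. Their median log2 change was 0.12, against -0.02 over all genes and 0.03 over genes above the median gene. A positive change was seen in 27 of 38 (71.1%), against 46.5% of all genes and 53.8% of genes above the median gene. The groups of arrays did not overlap in 16 members (42.1%), against 32.6% of all genes and 45.9% of genes above the median gene, with stretched cells above in 12 and below in 4. The count of members that rose was 3 without stretched replicate 1 or 2 or without unstretched replicate 1 or 2, 4 without stretched replicate 3 and 8 without unstretched replicate 3. With the arrays quantile normalized again it was 4, the members that fell numbered 2, and 42.6% of calls over all genes were higher in place of 54.2%. Arrays centred on their medians gave 62.0% of calls higher and cyclic loess 44.5%, and the members' median stayed positive under each of these scalings (0.08 to 0.15). Over all genes the median was -0.01 with a second quantile normalization, -0.01 with cyclic loess and 0.01 with centred arrays. Members with a positive change numbered 23, 23 and 28 under these 3, and the share over all genes was not computed there. All arrays had a mean of 5.70, but the SD of their values was 2.08 to 2.10 on stretched and 2.03 to 2.06 on unstretched arrays. The part of this wider spread in the changes of bright genes, such as most members, was not tested.

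**Figure D2:**
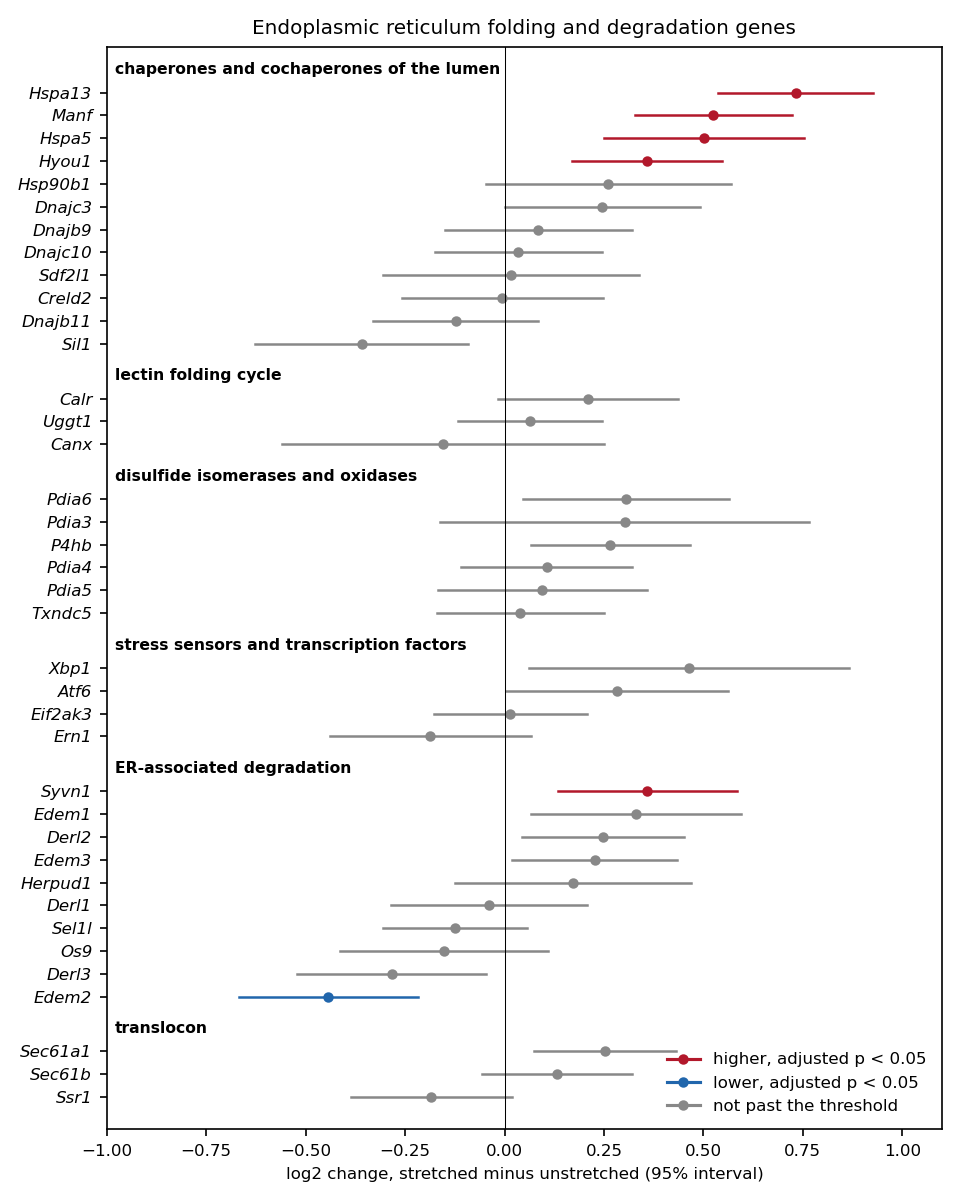
Log2 change of each of the 38 members, stretched minus unstretched, with its 95% interval from limma (n = 3 arrays per group), grouped by role. Red genes rose and the blue gene, Edem2, fell; the intervals of Hspa13, Manf, Hspa5, Hyou1 and Syvn1 lie above 0, and all grey genes but Xbp1 and Sil1 lie within 0.35 of 0.

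The luminal chaperones and cochaperones held 4 of the 5 rises, among 12 genes with a median log2 change of 0.17. The share that rose was 33.3%, against 7.98% of all genes and 14.3% of genes above the median gene. With so few genes this difference was not tested. Hspa13, a microsomal Hsp70 relative without a substrate-binding domain, had log2 values of 9.37, 9.41 and 9.44 on the stretched arrays, against 8.57, 8.80 and 8.66 on the unstretched arrays. All 3 stretched arrays lay above every unstretched array, and the gap between the groups was wider than the spread within either. The log2 change was 0.73 (SE 0.09, 95% interval 0.54 to 0.93, adjusted p = 4.13e-04), a level 1.66-fold higher. Hspa13 was read by 4 probe sets, whose changes were all positive (0.17 to 0.73), and 3 of them passed when every probe set was tested. With the 4 averaged, the log2 change was 0.40 (adjusted p = 0.00607).

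Manf, an ER-resident and secreted protein that binds Hspa5, had log2 values of 9.74, 9.65 and 9.88 in stretched cells, against 9.28, 9.17 and 9.25 in unstretched cells. Again no stretched array fell within the range of the unstretched ones. Its log2 change was 0.52 (SE 0.09, adjusted p = 0.00318). Hspa5, the central Hsp70 of the ER lumen, had log2 values of 11.23, 11.20 and 11.58 in stretched cells, against 10.75, 10.81 and 10.94 in unstretched cells. Stretched replicate 3 stood apart at the top, and the other 2 stretched arrays were still above every unstretched array. Its log2 change was 0.50 (SE 0.11, adjusted p = 0.0135), and without stretched replicate 3 it was 0.38 (adjusted p = 0.0447). The other 2 probe sets of Hspa5 had log2 changes of 0.42 and 0.33 and did not pass among all probe sets (adjusted p = 0.0631 and 0.0683). The calls of Hspa13, Manf and Hspa5 held under all 16 alternatives computed, with adjusted p up to 0.00607, 0.0167 and 0.0484. For Manf, read by 1 probe set, and for Hspa5, whose probe sets all carry a suffix, some of these alternatives could not change the value.

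Hyou1, a large Hsp70 relative that exchanges nucleotide on Hspa5, had log2 values of 9.09, 9.05 and 8.99 in stretched cells, against 8.62, 8.66 and 8.78 in unstretched cells. The groups did not overlap, and the log2 change was 0.36 (SE 0.09, adjusted p = 0.0172). Leaving out stretched replicate 1 (adjusted p = 0.0746) or 2 (0.0582) ended the call, as did leaving out unstretched replicate 1 (0.0543) or 2 (0.0523). It also rests on a probe set whose suffix marks probes shared between transcripts. On the probe set lacking that suffix the log2 change was -0.017 (adjusted p = 0.926), and the mean of all 3 probe sets did not pass (0.151).

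The remaining 8 chaperone and cochaperone genes did not pass. Sil1, which like Hyou1 exchanges nucleotide on Hspa5, had the lowest change of the group, with log2 values of 7.44, 7.43 and 7.17 in stretched cells against 7.91, 7.73 and 7.48 in unstretched cells. All stretched arrays lay below all unstretched arrays, and the log2 change was -0.36 (SE 0.12, adjusted p = 0.0741). Sil1 passed without unstretched replicate 3 (adjusted p = 0.0217), with the arrays quantile normalized again (0.0428) and with cyclic loess (0.0449). Hsp90b1 (Grp94), the Hsp90 of the ER, had log2 values of 11.82, 11.65 and 12.01 in stretched cells against 11.29, 11.57 and 11.84 in unstretched cells, which overlap. Its log2 change was 0.26 (SE 0.14, 95% interval -0.05 to 0.57, adjusted p = 0.256). The second, nearly as bright probe set of Hsp90b1 read 11.78, 11.57 and 11.98 in stretched cells against 10.98, 11.05 and 11.46 in unstretched cells, a log2 change of 0.61 that passed among all probe sets (adjusted p = 0.0193). The 2 probe sets of this gene therefore gave different calls. Among the J-domain cochaperones, the log2 change was 0.25 for Dnajc3 (adjusted p = 0.179), 0.08 for Dnajb9, 0.03 for Dnajc10 and -0.12 for Dnajb11. Sdf2l1 and Creld2, both small ER proteins induced by ER stress, had changes of 0.02 (95% interval -0.31 to 0.34) and -0.01 (-0.26 to 0.25).

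**Figure D3:**
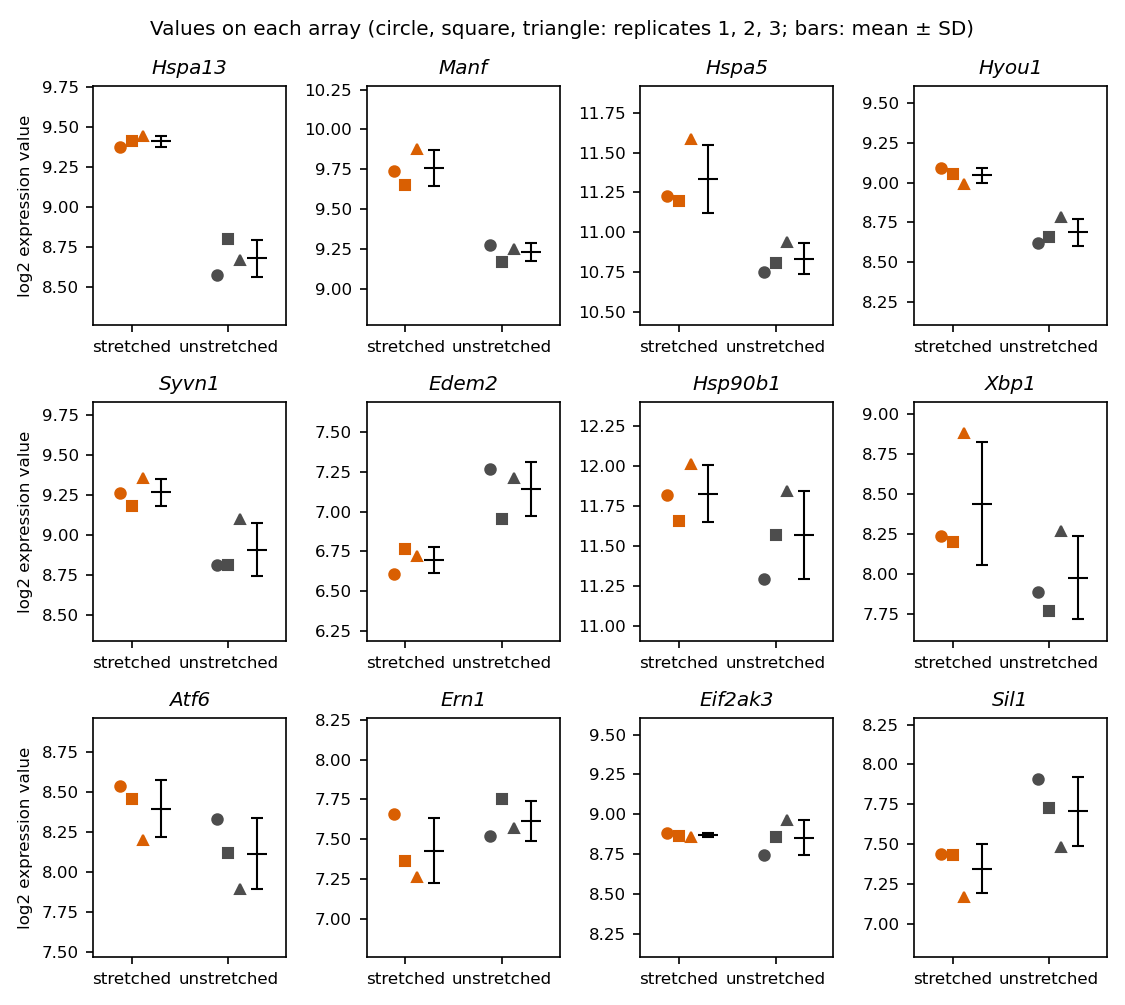
Log2 expression value of 12 members on each array, stretched left of unstretched, with circles, squares and triangles for replicates 1, 2 and 3 and bars for the mean ± SD of 3 arrays; every panel spans 1.5 log2 units. The groups are separate in Hspa13, Manf, Hspa5, Hyou1, Syvn1, Edem2 and Sil1 and overlap in Hsp90b1, Xbp1, Atf6, Ern1 and Eif2ak3.

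Of the 4 sensor and transcription factor genes 0 passed in limma's main fit, with 2 under an unadjusted p of 0.05. Xbp1, whose RNA is spliced by Ern1 to encode the active factor, had log2 values of 8.24, 8.20 and 8.88 in stretched cells, against 7.89, 7.77 and 8.27 in unstretched cells. Replicate 3 was the highest of its group on both sides, and the groups overlapped. The log2 change was 0.46 (SE 0.18, 95% interval 0.06 to 0.87, adjusted p = 0.123), and without stretched replicate 3 it was 0.24 (adjusted p = 0.369). Xbp1 passed with the replicate number as a fixed block, an alternative described at the end whose pairing the labels do not give. All 4 Xbp1 probe sets had positive changes (0.24 to 0.83), and that with 0.83 passed among all probe sets (adjusted p = 0.0219), with values of 7.0, 6.88 and 7.78 in stretched cells against 6.46, 6.21 and 6.49 in unstretched cells. These values sum spliced and unspliced Xbp1 RNA as far as the labels tell.

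The sensors themselves differed less. Atf6, which is cut in the Golgi to release a transcription factor, had log2 values of 8.54, 8.45 and 8.20 in stretched cells against 8.33, 8.12 and 7.89 in unstretched cells. The groups overlapped, and the log2 change was 0.28 (95% interval 0.00 to 0.56, adjusted p = 0.175). The other 2 probe sets of Atf6 had changes of -0.14 and -0.023. With all 3 averaged the change was 0.040 (adjusted p = 0.862), and without unstretched replicate 3 it was 0.17 (0.397). Like Xbp1, Atf6 passed with the fixed block (0.0452). Ern1 had 7.66, 7.37 and 7.27 in stretched cells against 7.52, 7.76 and 7.57 in unstretched cells, a log2 change of -0.19 (95% interval -0.44 to 0.07, adjusted p = 0.329) that was 0.0033 with its 5 probe sets averaged. Eif2ak3, the kinase that slows translation, had 8.88, 8.87 and 8.86 in stretched cells against 8.74, 8.86 and 8.96 in unstretched cells. Its log2 change was 0.01 (95% interval -0.18 to 0.21, adjusted p = 0.936) and turned to -0.059 once arrays were quantile normalized again and to -0.13 with its 3 probe sets averaged.

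In the lectin cycle, which holds glycoproteins until they are folded, 0 of 3 genes passed in limma, and 0 had an unadjusted p under 0.05. Calr (calreticulin) had log2 values of 11.54, 11.66 and 11.88 in stretched cells against 11.51, 11.41 and 11.53 in unstretched cells. The groups did not overlap, by a narrow margin, and the log2 change was 0.21 (SE 0.10, adjusted p = 0.213). Canx (calnexin) had 10.39, 10.12 and 10.19 in stretched cells against 10.13, 10.91 and 10.13 in unstretched cells. Unstretched replicate 2 stood far above the other arrays of its group; the log2 change was -0.16 with it and 0.10 without it (adjusted p = 0.642 and 0.60). For Uggt1, the folding sensor that adds glucose back to misfolded glycoproteins, the log2 change was 0.06 (adjusted p = 0.673).

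All 6 disulfide isomerases measured had positive changes, between 0.04 and 0.30, and 0 passed in limma, with 2 under an unadjusted p of 0.05. Pdia6 had log2 values of 10.48, 10.51 and 10.85 in stretched cells against 10.29, 10.17 and 10.45 in unstretched cells. The groups did not overlap, and the log2 change was 0.30 (SE 0.12, adjusted p = 0.116). P4hb, the founding isomerase and a subunit of collagen prolyl hydroxylase, had 10.86, 10.85 and 10.94 in stretched cells against 10.64, 10.48 and 10.72 in unstretched cells, also without overlap (log2 change 0.27, SE 0.09, adjusted p = 0.0769). With a trend and robust prior both passed (adjusted p = 0.0447 for Pdia6 and 0.0158 for P4hb), and P4hb passed with dim genes left out (0.0459). Pdia3, the partner of calnexin and calreticulin, had the widest spread within a group, an SD of 0.49 in unstretched cells, and a log2 change of 0.30 (95% interval -0.16 to 0.77). Pdia4, Pdia5 and Txndc5 had log2 changes of 0.11, 0.10 and 0.04.

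Of the 10 degradation genes 1 rose, 1 fell and 8 did not pass. The shares, 10% higher and 10% lower, were near those of genes above the median gene, 14.3% and 10.5%. Over all genes the shares were 7.98% and 6.76%. Syvn1 (Hrd1), the membrane ubiquitin ligase of this route, had log2 values of 9.26, 9.18 and 9.35 in stretched cells against 8.81, 8.81 and 9.10 in unstretched cells. Unstretched replicate 3 was closest to the stretched arrays, and the groups did not overlap. The log2 change was 0.36 (SE 0.10, adjusted p = 0.0377), and without unstretched replicate 3 it was 0.45 (adjusted p = 0.011). The call ended without any other single array, with adjusted p of 0.105, 0.0616 and 0.134 without stretched replicates 1, 2 and 3 and of 0.112 and 0.119 without unstretched replicates 1 and 2. It also ended with the arrays quantile normalized again (0.0900), with cyclic loess (0.0770), with both probe sets averaged (0.0969) and on the probe set without the suffix for shared probes, where the log2 change was 0.12 (0.453).

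Edem2, which starts the mannose trimming that marks glycoproteins for disposal, had log2 values of 6.61, 6.77 and 6.72 in stretched cells against 7.26, 6.95 and 7.21 in unstretched cells. All stretched arrays lay below all unstretched arrays. The log2 change was -0.44 (SE 0.10, adjusted p = 0.0145), a level 1.36-fold lower. Leaving out stretched replicate 1 (adjusted p = 0.0676) ended the call, as did leaving out unstretched replicate 1 (0.0516). Its relatives did not follow it: the log2 change was 0.33 for Edem1 (SE 0.12, adjusted p = 0.0939) and 0.23 for Edem3 (SE 0.09, adjusted p = 0.143), and both passed without unstretched replicate 3 (0.0268 and 0.0456). Edem1 also passed with its probe sets averaged (0.00836) and with a trend and robust prior (0.0441). The difference between these genes was not tested. Edem1 had 9.15, 9.24 and 9.48 in stretched cells against 8.84, 8.85 and 9.18 in unstretched cells, and its dimmer probe set had a log2 change of 0.62 that passed among all probe sets (adjusted p = 0.00177).

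Other parts of the degradation complex stayed within small differences. Sel1l, the scaffold that holds Syvn1, had 9.66, 9.73 and 9.64 in stretched cells against 9.86, 9.74 and 9.81 in unstretched cells, just without overlap (log2 change -0.12, 95% interval -0.31 to 0.06, adjusted p = 0.369). The derlins, membrane proteins of the exit channel, had log2 changes of -0.04 for Derl1, 0.25 for Derl2 (SE 0.09, adjusted p = 0.105, no overlap) and -0.28 for Derl3 (adjusted p = 0.112). Herpud1, which recruits the ligase complex, had a change of 0.17 and the lectin gene Os9 of -0.15 (adjusted p = 0.459 and 0.456).

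Of the 3 translocon genes 0 passed in limma, and 1 was under an unadjusted p of 0.05. In all 3 the groups did not overlap, with stretched cells above in 2 and below in 1. The groups also did not overlap in 32.6% of all genes and 45.9% of genes above the median gene. Sec61a1, the pore itself, had log2 values of 10.61, 10.57 and 10.57 in stretched cells against 10.29, 10.40 and 10.30 in unstretched cells (log2 change 0.25, SE 0.08, adjusted p = 0.0620). It passed with arrays centred on their medians (adjusted p = 0.0421), with dim genes left out (0.0333) and with a trend and robust prior (0.0129), but the log2 change was -0.19 (adjusted p = 0.251) on the brightest of its probe sets that carry no suffix for shared probes. Sec61b, a small subunit of the pore complex, had a change of 0.13, and Ssr1, a subunit of the translocon-associated complex, of -0.18 (adjusted p = 0.360 and 0.227).

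The choice of probe set mattered for many of these genes. Of the 38 members 28 were read by more than 1 probe set, and in 13 of the 28 all changes had the same sign. Of the 57 probe sets not used to stand for a gene, 6 passed as higher and 1 as lower (12.3%), against 13.1% of all 34945 probe sets tested. Besides those of Hspa13, Xbp1, Hsp90b1 and Edem1, the dimmest of the 5 probe sets of Dnajc3, at a mean of 4.91, rose by 0.38 (adjusted p = 0.0219), while the dimmest of Canx fell by 0.39 (adjusted p = 0.0270). The platform's annotation does not say which transcript form each probe set reads.

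**Figure D4:**
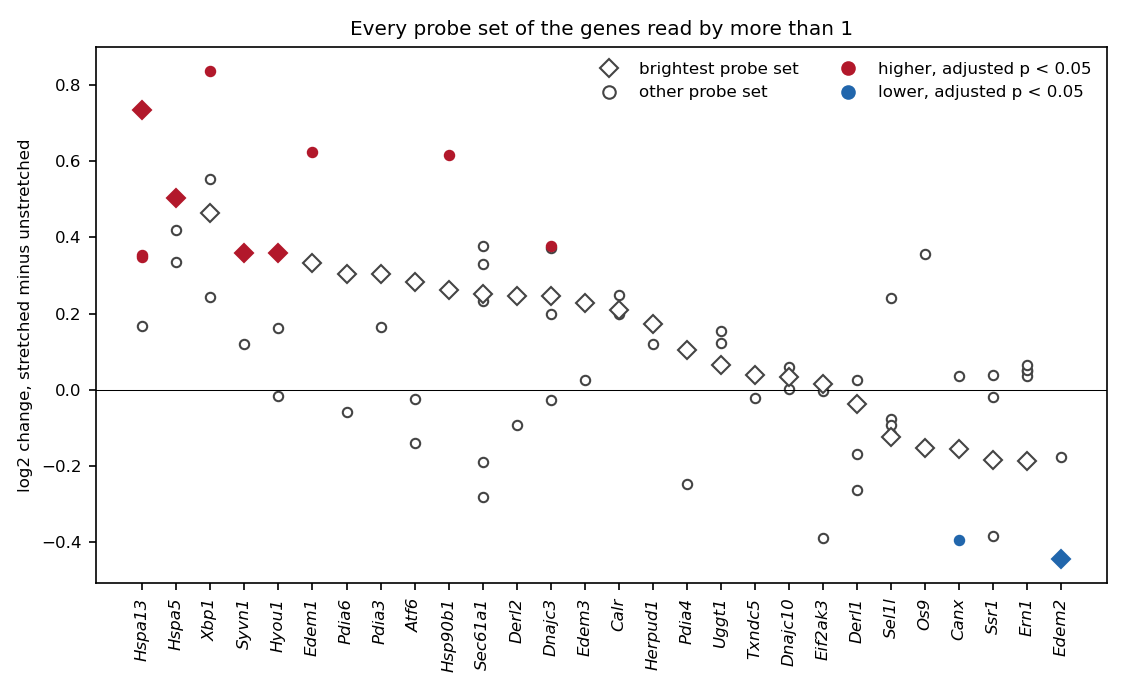
Log2 change (stretched minus unstretched) of every probe set of the 28 members read by more than 1, with a diamond for the brightest, which stands for the gene, and circles for the rest; filled symbols passed an adjusted p of 0.05 over all 34945 probe sets. Xbp1, Edem1, Hsp90b1 and Dnajc3 have a filled circle above an open diamond, and Canx has a filled blue circle below one.

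Arrays of a group were not alike across the members. Of the 38 genes, 16, 5 and 17 were highest on stretched replicates 1, 2 and 3 within their group, and 10, 17 and 11 were lowest there. On unstretched replicates 1, 2 and 3, 10, 11 and 17 were highest and 18, 14 and 6 lowest. Replicate 3 was the highest of both groups in 12 genes. The mean log2 value over the members was 9.01, 8.95 and 9.04 on the stretched arrays and 8.86, 8.86 and 8.92 on the unstretched arrays. The labels give no common source to arrays of the same number, so the main fit did not pair them. With the number as a fixed block, an alternative described at the end, 9 members rose and 2 fell.

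The other genes of the ER were taken from 9 lists. Lists with more than 20% of genes called were the collagen chaperones and modifying enzymes (6 of 20 rose, 1 fell), the COPII coat, cargo receptors and KDEL receptors (7 of 31 rose, 1 fell) and the ER calcium pump, channels and calcium-binding proteins (5 of 20 rose, 0 fell in limma, with 1 lower at an unadjusted p under 0.05). Most of these genes are brightly read (17 of 20, 29 of 31 and 19 of 20 above the median gene), and 24.8% of all genes above the median gene were called. The shares called in either direction were 35%, 25.8% and 25%, so those of the COPII and calcium lists were near that background. By direction in the main fit they were not: 30%, 22.6% and 25% rose, against 14.3% of genes above the median gene. The shares that fell were 5%, 3.23% and 0%, against 10.5%. These differences between shares were not tested. The direction of calls over all genes depended on the scaling: 54.2% were higher in the main fit, 42.6% with a second quantile normalization and 44.5% with cyclic loess. The shares of the lists are given for the main fit only. The medians were 0.25, 0.08 and 0.10, against -0.02 over all genes and 0.03 over genes above the median gene. Among the first, P3h4, part of a collagen hydroxylation complex, rose by 0.65 (SE 0.08) and the lysyl hydroxylase gene Plod3 by 0.43 (SE 0.08). In the second, Sec23a, a subunit of the coat that buds vesicles from the ER, rose by 0.84 (SE 0.12) and Ergic1, a protein cycling between ER and Golgi, by 0.76 (SE 0.09). In the third, Cnpy4 rose by 0.55 (SE 0.10) and the calcium-binding reticulocalbin gene Rcn2 by 0.46 (SE 0.09); on the other probe set of Rcn2, which carries no suffix for shared probes, the log2 change was -0.076 (adjusted p = 0.742).

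In the other 6 lists 10.7% to 20% of genes were called, against 14.7% of all genes and 24.8% of those above the median gene, where most genes of these lists lie. Of 32 remaining degradation genes 4 rose and 1 fell (median 0.05): the ATPase gene Vcp, which pulls substrates from the membrane, rose by 0.40 (SE 0.08), and Fbxo2, which recognises glycoproteins, by 0.80 (SE 0.17). The Vcp call ended with both probe sets averaged (log2 change 0.24, adjusted p = 0.0583). Of 31 genes of the translocon, signal recognition and signal peptidase 4 rose and 1 fell (median 0.03). Spcs3, a signal peptidase subunit, had log2 values of 11.86, 11.85 and 11.92 in stretched cells against 11.23, 11.24 and 11.25 in unstretched cells, and rose by 0.64 (SE 0.08). Get3, which targets tail-anchored proteins, fell by 0.37 (SE 0.08), a call that ended without stretched replicate 2 (adjusted p = 0.0541). Of 28 glycan addition and trimming genes 3 rose and 0 fell in limma, with 1 lower at an unadjusted p under 0.05 (median 0.03). Ostc and Rpn1, subunits of the oligosaccharyltransferase, rose by 0.37 (SE 0.09) and 0.35 (SE 0.09). The Ostc call ended without stretched replicates 1 and 2 (adjusted p = 0.0676 and 0.0564) and without unstretched replicates 1 and 2 (0.0533 and 0.0595). That of Rpn1 ended without stretched replicates 1, 2 and 3 (0.0982, 0.0858 and 0.0685) and without unstretched replicates 1 and 2 (0.0868 and 0.0594). On its probe set with no suffix for shared probes, the change of Rpn1 was 0.0064 (0.973), and with its 6 probe sets averaged it was 0.19 (0.127). With averaged probe sets the change of Ostc was 0.21 (0.345).

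Of 16 remaining luminal chaperones and cochaperones 2 rose and 1 fell (median 0.04). The torsin family gene Tor3a fell by 0.60 (SE 0.11), and Hspa4l, which is a cytosolic Hsp110 and not a luminal protein, rose by 0.69 (SE 0.14). Of 20 remaining oxidoreductases 1 rose and 3 fell (median -0.04). Gpx8, a glutathione peroxidase of the ER membrane, rose by 0.62 (SE 0.09) and Txndc16 fell by 0.46 (SE 0.08). Ero1a, the oxidase that recharges the disulfide isomerases, had log2 values of 8.85, 8.80 and 8.62 in stretched cells against 9.12, 9.10 and 9.03 in unstretched cells, without overlap. It fell by 0.33 (SE 0.09, adjusted p = 0.0348), a call that ended without stretched replicates 1, 2 and 3 (0.0552, 0.0740 and 0.134) and without unstretched replicates 1 and 2 (0.0904 and 0.0855). With its 3 probe sets averaged the change was -0.10 (0.401), and with arrays centred on their medians it was -0.30 (0.0535). The log2 change of Ero1b was -0.19 (adjusted p = 0.220).

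Of 24 other stress sensors, transcription factors and genes of the PERK arm, 1 rose and 3 fell (median -0.09). Ddit3 (CHOP), a transcription factor induced downstream of PERK, had log2 values of 9.19, 9.07 and 8.81 in stretched cells against 10.57, 10.52 and 10.38 in unstretched cells, and was 2.76-fold lower (log2 change -1.46, SE 0.11, adjusted p = 3.07e-05). Atf4, the factor that acts on Ddit3, had 10.69, 10.61 and 10.22 in stretched cells against 10.71, 10.62 and 10.14 in unstretched cells, with full overlap (log2 change 0.02, adjusted p = 0.956). With its 3 probe sets averaged the change of Atf4 was 0.31 (adjusted p = 0.0790). On the brightest probe set, replicate 3 of both groups was the lowest. Creb3l1 (OASIS), an ER membrane transcription factor cut like Atf6 and known for its part in collagen secretion by bone cells, rose by 0.73 (SE 0.14), with 6.50, 6.57 and 6.97 in stretched cells against 5.72, 6.08 and 6.04 in unstretched cells.

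**Figure D5:**
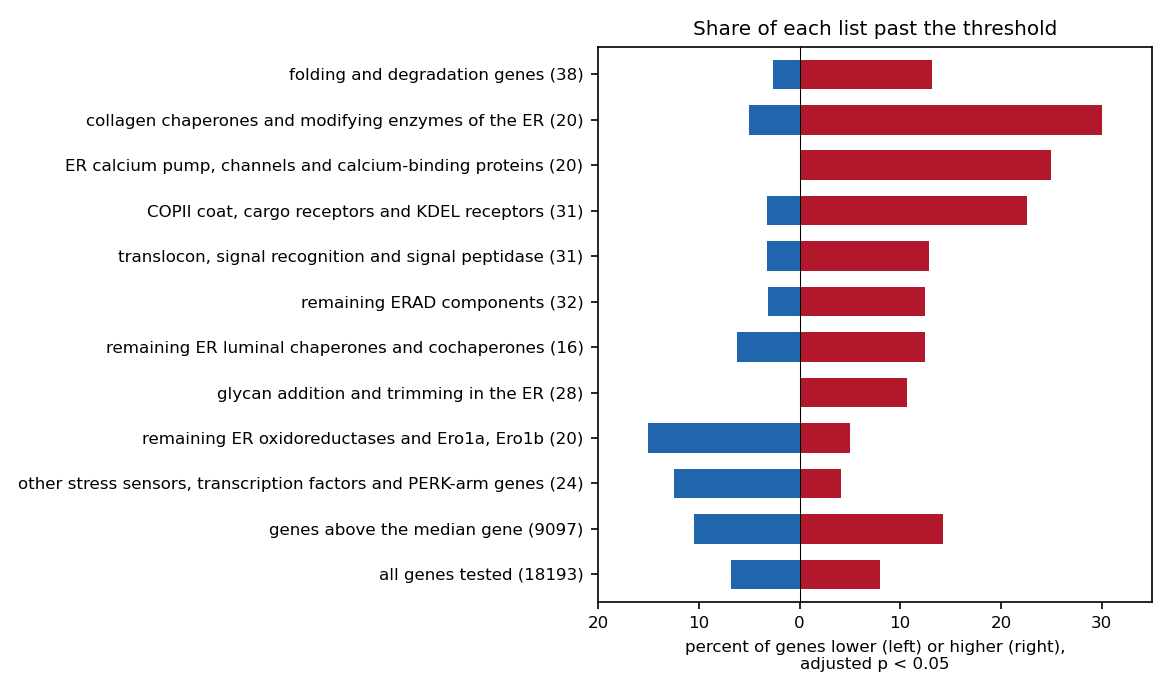
Percent of the genes of each list that were called lower (bars to the left) or higher (bars to the right) in stretched cells at a limma adjusted p under 0.05, with the number of genes measured in brackets; the bottom rows give genes above the median gene and all genes. The members, at the top, have 13.2% higher and 2.63% lower, against 14.3% and 10.5% of the genes above the median gene.

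Some measures of cells and RNA moved with the groups. Of 16 podocyte markers 2 rose, Itga3 (log2 change 0.72) and Nes (0.57), and 2 fell, Clic5 (-0.81) and Synpo (-0.45). Wt1 was not called (limma adjusted p = 0.278), with means of 6.85 in stretched and 6.60 in unstretched cells. Nphs1 (nephrin), at 4.91 and 5.01, Tcf21, at 4.11 and 4.20, and Clic5, at 4.18 and 4.99, lay near or below the medians of the arrays (4.92 to 4.98). Values there may be background. The mean log2 level of 12 tubule markers was 6.31 to 6.36 on stretched and 6.0 to 6.03 on unstretched arrays. Of these 3 rose, with Aqp1 at 9.75 in stretched and 7.66 in unstretched cells (log2 change 2.09), and the median change of the 12 was 0.09. The mean level of 10 macrophage and leukocyte markers was 5.61 to 5.68 on stretched and 5.92 to 6.01 on unstretched arrays, with 1 gene that rose, 3 that fell and a median change of -0.15. Itgb2 averaged 6.57 in stretched and 8.69 in unstretched cells (log2 change -2.12) and Cd14, which rose, 9.92 and 9.11 (0.81), while the pan-leukocyte marker Ptprc lay below the array medians, at 4.06 and 4.34. Of 11 mesangial or fibroblast markers 1 rose, Pdgfrb (log2 change 0.41), and 1 fell, Dcn (-1.50). Their mean levels were 6.0 to 6.08 on stretched and 6.09 to 6.11 on unstretched arrays. Of 11 endothelial markers 0 were called in limma, with 2 under an unadjusted p of 0.05, and their mean levels were 4.57 to 4.71 and 4.57 to 4.72. For the control probe sets of beta-actin, the log2 value at the 3' end less that at the 5' end, a sign of RNA quality, was 1.30 ± 0.05 in stretched and 1.57 ± 0.03 in unstretched cells (SD, n = 3 each, two-sided exact permutation p = 0.1, the smallest possible here). The same difference for Gapdh was 0.16 ± 0.10 in stretched and 0.25 ± 0.07 in unstretched cells (SD, n = 3 each, exact permutation p = 0.4). The part of these in the changes of the ER genes was not tested, and fewer cells of a type cannot be told from less RNA per cell.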

How the data were processed

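Gene expression was measured on 6 Affymetrix mouse arrays, 3 of stretched and 3 of unstretched cells, grouped by their titles. Each array's deposited table gives a log2 expression value for every probe set, made with RMA per the submitters' processing notes. The sources used here name no version and no genome build. RMA equalises the overall level of arrays and compresses changes of dim probe sets. Detection calls were not used, so signal over background is unknown.

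Of 45101 probe sets, 64 controls were left out, 34945 had 1 gene symbol, 932 several and 9160 none here. The probe set with the highest mean stood for each of 18193 genes, with no filter on low values, and 38 of 38 members were tested. The difference, stretched minus unstretched, came from limma 3.58.1 (lmFit, eBayes) in R 4.3.3 with no covariates and Benjamini-Hochberg adjustment over all genes. Named were members that passed, had an adjusted p under 0.1 or groups that did not overlap, the extremes of each role, the sensors, and the 2 called genes with the largest statistics of each other list, plus Ddit3, Atf4, Ero1a and Ero1b. The members and lists were chosen with earlier results of these data known. Alternatives were a replicate block, each array left out, other scalings, probe set choices, a filter on dim genes and another prior. On simulated data with 200 of 18193 genes changed, the fit recovered 92% of changes of 1 log2 unit and 50% of changes of 0.5, and 5.33% of calls were false.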

Additional observations from a re-analysis of the deposited data

How the results depend on the processing

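The calls of Hspa13, Manf and Hspa5 held under all 16 alternatives; those of Edem2, Hyou1 and Syvn1 ended under 2, 6 and 9. Over 23 named members, 322 of 368 alternative values kept their direction and side of the threshold, 16 lost a call in the same direction, 21 gained one and 9 turned sign, 1 of which, in Hyou1, also lost its call. Over 21 other genes, 305 of 335 kept both, 24 lost a call in the same direction and 6 turned sign, 1 of which, in Rcn2, also lost its call. With 1 array left out, 3 to 8 members rose and 0 to 2 fell, and over all genes 872 to 1450 rose and 767 to 1189 fell; fewer arrays were then tested. Members that rose numbered 9 with a trend and robust prior and 3 without shared-probe suffixes, and 2 fell under cyclic loess and under a second quantile normalization. Testing each probe set on its own gave 2859 that rose. The beta-actin difference was -0.20 with quantile normalization again. The changes that turned sign were those of Hyou1 (-0.017), Sec61a1 (-0.19), Canx (0.036) and Rcn2 (-0.076) without shared-probe suffixes, Ern1 (0.0033) and Eif2ak3 (-0.13) with averaged probe sets, and Eif2ak3 (-0.059 and -0.052) and Atf4 (-0.061 and -0.053) with quantile normalization and cyclic loess. With 1 array left out, the changes ran from -0.16 to 0.16 for Atf4, -0.29 to 0.10 for Canx and -0.040 to 0.069 for Eif2ak3. The cause was not tested.

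With the replicate number as a fixed block, 9 members rose and 2 fell, among 3102 genes called, and as a random block 7 rose and 2 fell. The fixed block added calls of Xbp1 (adjusted p = 0.00749), Edem1 (0.0229), Pdia6 (0.0391), Atf6 (0.0452) and Sil1 (0.0190), and the random block those of Sec61a1 (0.0405), Sil1 (0.0410) and P4hb (0.0480). Arrays of the same number correlated in their deviations from the group means at 0.02, 0.15 and 0.28 over all genes, and arrays of different numbers at -0.24 to 0.11. Stretched replicates 2 and 3 correlated best with their own number, and stretched replicate 1 with another (0.06). No label ties the numbers to batches, so the numbers were not taken to pair the samples. Whether they do cannot be told from these data. With no detection calls, what signal over background limits cannot be given.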
